A study of Mus musculus with 9 samples.

Results

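The mouse genes studied here were 9 genes around transforming growth factor beta (TGF-β) and its SMAD3 transcription factor: *Skil*, *Ski*, *Smad7*, *Pmepa1*, *Tgif1*, *Smad3*, *Ccn1*, *Ccn2* and *Tgfbi*. They were chosen by name, from the published target and feedback genes of the pathway, with earlier results of these libraries known. *Skil* entered because the study had picked it on the same libraries, as a gene higher in the BGP group than in either other group, so its differences are given as a description without a test. All 9 genes were among the 55416 rows of the count table, and all 9 were among the 13679 genes with enough counts to be tested.

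The cells were MC3T3-E1, a wild-type murine pre-osteoblastic line from calvarial bone that is differentiated in culture towards osteocyte-like cells. All 3 groups had been differentiated in medium that held 10 mM β-glycerophosphate (BGP), an organic phosphate, together with dexamethasone and ascorbic acid. By the methods, this BGP was withdrawn for the last week of culture, whereas the labels describe the medium with BGP up to day 27. The sources used here do not settle which account holds for these libraries. On day 27, a set of cultures was given BGP at 4 mM and another a Na2HPO4/NaH2PO4 mixture (NaHPO4, inorganic phosphate) at 4 mM. The Control set was given neither. By the methods, the base medium held some inorganic sodium phosphate in all conditions, so Control was not free of it. After 16 h RNA was taken, with 3 libraries per group and 9 in all. Neither the labels nor the methods say whether the 3 libraries of a group were separate cultures, so that p-values measure the spread between these libraries, which may be technical. The data are from 1 cell line at 1 time point.

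Total counts ran from 21390839 to 28234404 per library. The osteoblast genes *Col1a1*, *Ibsp*, *Runx2*, *Sp7* and *Bglap* were present in every library, and the osteocyte genes *Mepe*, *Sost* and *Fgf23* were low in Control, with means of 3.45, 1.39 and 1.20 CPM (counts scaled to the same total in each library). *Phex* and *Pdpn*, from the same list of osteoblast and osteocyte markers, were higher in Control, at 34.7 and 30.5 CPM. *Dmp1*, an early osteocyte gene, averaged 76.0 CPM in Control and stood higher in both phosphate groups, at 552 CPM (BGP) and 349 CPM (NaHPO4). Of all 14 osteoblast and osteocyte markers, 4 passed the test with BGP against Control, against 2.53% of all genes. Passing means an FDR below 0.05 in the test defined further below. These were *Dmp1*, *Spp1*, *Fgf23* and *Phex*, all higher. With NaHPO4 against Control 7 passed, against 7.38% of all genes. Of these, *Dmp1* and *Spp1* rose and *Alpl*, *Col1a1*, *Bglap*, *Bglap2* and *Sost* fell, *Sost* to 0.427 CPM. *Fgf23* and *Dmp1* had been followed by the study for their response to phosphate, so their calls are not independent of that choice. Of 14 markers of fat, muscle, blood, endothelial and cartilage cells, *Myod1* and *Myog* were at 0 in all 9 libraries and 4 had enough counts to be tested. Of these, *Col2a1* was the only gene to pass in any comparison, higher with BGP (log2FC 0.50) and lower with NaHPO4 (-0.45) against Control and higher by 0.95 between the phosphates. It made up most of the summed level of the list, with means of 242, 342 and 177 CPM in Control, BGP and NaHPO4, and the summed level of the 14 markers was 265 to 321 CPM in Control, 353 to 461 CPM with BGP and 199.7 to 276 CPM with NaHPO4. Whether these markers have a part in the differences described here was not tested.

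TGF-β ligands are secreted in a latent form, and once released they bind a pair of receptor kinases that phosphorylate SMAD2 and SMAD3, which join SMAD4 and enter the nucleus to switch on target genes. Among the first targets are brakes on the pathway itself: SMAD7 blocks the receptor, and PMEPA1 holds back the receptor-activated SMADs. SnoN (encoded by *Skil*) and TGIF1 are further such targets, corepressors that act on SMAD complexes at DNA. SKI is a corepressor of the same SMADs. In bone, TGF-β stored in the matrix is known to steer osteoblast differentiation and the upkeep of the osteocyte network.

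Levels between genes were compared per transcript length, as TPM (counts divided by the exon length of the gene and scaled to the same total in each library). In Control, *Ccn1* was highest at 628 ± 34.5 TPM (SD, n = 3), followed by *Ski* at 105 ± 3.08, *Smad3* at 81.0 ± 0.539, *Ccn2* at 60.5 ± 3.84, *Tgif1* at 32.4 ± 1.03, *Pmepa1* at 24.1 ± 1.53, *Smad7* at 18.5 ± 0.580, *Skil* at 13.7 ± 0.984 and *Tgfbi* at 10.6 ± 0.371 TPM. No neighbours in this order shared their range over the 3 libraries. The exon length joined all annotated exons of a gene, used in these cells or not, and the order depends on it. It was 10099 bases for *Skil* and 4747 for *Smad7*, and in CPM *Skil* (28.3) lay above *Smad7* (17.9) in Control. The order was different in the cells given phosphate. With BGP, *Ccn2* stood at 117 ± 9.67 TPM and overlapped with *Ski* at 108 ± 2.40 TPM, while *Skil* at 21.6 ± 1.56 TPM overlapped with *Smad7* at 21.7 ± 1.15 TPM. With NaHPO4, *Ccn2* at 95.4 ± 3.47 TPM lay above *Smad3* at 79.2 ± 2.44 TPM and below *Ski* at 107 ± 5.87 TPM, and no neighbours overlapped.

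**Figure D1:**
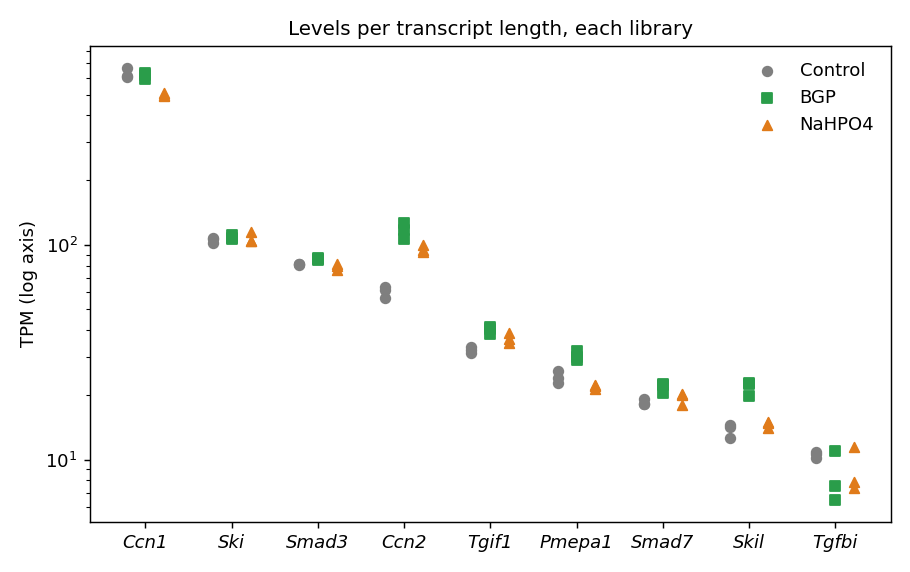
Level of each gene per transcript length (all annotated exons joined) in every library, in TPM on a log axis. Genes are ordered by their Control mean. Each point is 1 library (grey circles Control, green squares BGP, orange triangles NaHPO4). *Ccn1* lies highest, from 492 to 668 TPM over the 9 libraries, and *Tgfbi* lowest, and *Ccn2* moves from below *Smad3* in Control to above it with either phosphate.

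In the comparison of BGP with Control, which asks what adding this organic phosphate did to the cells, *Ccn2* rose 1.94-fold, *Pmepa1* 1.26-fold and *Tgif1* 1.24-fold. *Ski*, *Smad3*, *Smad7*, *Ccn1* and *Tgfbi* did not pass the test. A gene passed the test if its FDR, the p of edgeR's quasi-likelihood test after Benjamini-Hochberg adjustment over the 13679 genes, was below 0.05, and a differentially expressed gene (DEG) also had an absolute log2 fold change (log2FC) above 0.5. Beside *Skil*, 3 of the 8 other genes passed, all of them higher, against 2.53% of all genes tested. Of all genes that passed, 73.7% were higher. *Ccn2* was the only DEG among these 8, against 0.556% of all genes. In 5 of the 8, the 3 BGP libraries lay above the 3 Control libraries without overlap, which was so in one direction or the other for 18.5% of all genes. The median log2FC of the 8 was 0.16, beside -0.004 over all genes. The share of all genes that passed depended on single libraries and was 1.45% without BGP replicate 1, 1.59% without BGP replicate 2 and 1.57% without Control replicate 1, while 3 of the 8 passed without any 1 library.

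In the comparison of NaHPO4 with Control, which asks the same of this inorganic phosphate, *Ccn2* rose and *Ccn1* fell, and the other genes did not pass. The 2 of 8 genes beside *Skil* that passed stand against 7.38% of all genes (4.68% without Control replicate 1), and 1 of them, *Ccn2*, was a DEG, against 0.716%. The libraries did not overlap for 4 of the 8 genes (2 higher, 2 lower), against 23.2% of all genes. The median log2FC of the 8 was -0.02, and over all genes it was 0.0001. Both phosphates were compared with the same 3 Control libraries.

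Between the phosphates, *Pmepa1*, *Ccn1*, *Ccn2* and *Smad3* were higher with BGP than with NaHPO4. These 4 of the 8 genes beside *Skil* stand against 5.38% of all genes tested (3.43% without BGP replicate 1), and none of the 8 passed as lower. Of all genes that passed, 62.0% were higher with BGP. *Pmepa1* was the only DEG of the 8, against 0.585% of all genes, with a log2FC just past 0.5. The BGP libraries lay apart from the NaHPO4 libraries for 5 of the 8 genes, all higher, against 21.2% of all genes. The median log2FC of the 8 was 0.17, beside -0.002 over all genes. In these bulk cultures, a lower level of a transcript per cell and fewer cells that make it cannot be told apart.

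**Figure D2:**
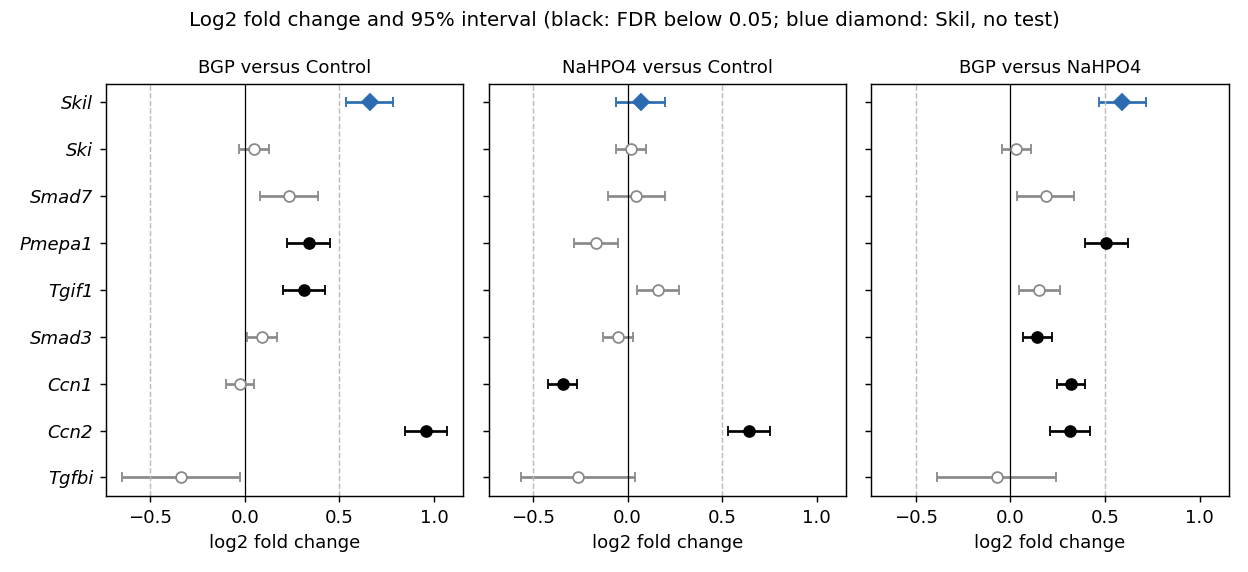
Log2 fold change of each gene in the 3 comparisons with its 95% interval from the fit across all genes; black points passed an FDR of 0.05, open points did not, and the blue diamond is *Skil*, given without a test. The intervals of *Skil* in the comparisons that involve BGP come from the libraries on which it was picked and are description only. Dashed lines mark a log2FC of 0.5 in either direction. *Ccn2* lies farthest to the right with both phosphates against Control, and *Ccn1* lies left of 0 with NaHPO4 and near 0 with BGP.

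Among the corepressors, *Skil* (chr3:31148816-31176740, plus strand, GRCm39) encodes SnoN, which binds SMAD complexes and recruits repressors to TGF-β targets until it is degraded. Its level was 29.2, 26.0 and 29.6 CPM in the Control libraries, 46.4, 46.7 and 41.1 CPM with BGP, and 28.3, 30.4 and 30.3 CPM with NaHPO4. The BGP libraries lay above all others, and the NaHPO4 libraries overlapped with those of Control. As *Skil* was picked on these libraries, the standard errors of its comparisons with BGP are description only. The log2FC was 0.66 (SE 0.0621) for BGP against Control, a 1.58-fold difference, 0.59 (SE 0.0606) for BGP against NaHPO4, and 0.07 (SE 0.0636, 95% interval -0.06 to 0.20) for NaHPO4 against Control.

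*Ski* (chr4:155238532-155307543, minus strand), the closest relative of *Skil* and a corepressor of the same SMADs, had no such pattern. It was at 131, 125 and 132 CPM in Control, 132, 137 and 132 CPM with BGP, and 138, 128 and 127 CPM with NaHPO4. The 3 groups overlapped, with a log2FC of 0.05 (95% interval -0.03 to 0.13) for BGP and 0.02 (95% interval -0.06 to 0.10) for NaHPO4 against Control. The sign of the difference with NaHPO4 turned when NaHPO4 replicate 1, its highest library, or Control replicate 2 was left out.

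*Tgif1* (chr17:71151192-71160541, minus strand) encodes a homeodomain corepressor that TGF-β itself can induce. Its level was 38.4, 37.5 and 39.7 CPM in Control, 49.7, 45.7 and 48.4 CPM with BGP, and 42.6, 41.0 and 45.8 CPM with NaHPO4. All BGP libraries and all NaHPO4 libraries were above those of Control, and the highest NaHPO4 library reached just above the lowest BGP library. *Tgif1* rose with BGP, with a log2FC of 0.31 (SE 0.0542, adjusted p = 0.000248 by edgeR's quasi-likelihood test with Benjamini-Hochberg adjustment). With NaHPO4 the log2FC was 0.16 (SE 0.0538, adjusted p = 0.0620), and between the phosphates it was 0.15 (SE 0.0527, adjusted p = 0.0859). The NaHPO4 difference passed with NaHPO4 replicate 2 left out (adjusted p = 0.0442), and with NaHPO4 replicate 3 left out the difference between the phosphates did (adjusted p = 0.0431). Exons of *Tgif1* share 851 bases with the antisense gene *Gm56904*, which is not in the count table. Whether reads were counted by strand is not given in the sources used here.

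The sequence before the start of *Tgif1* is shown because it is 1 of the genes that rose and because a sequence was at hand for it. RefSeq promoters of the GRCm38.p6 table matched 5 of the 9 genes (*Ski*, *Smad3*, *Ccn1* and *Tgfbi* with 1 start each and *Tgif1* with 5), and *Skil*, *Smad7*, *Ccn2* and *Pmepa1* had no entry. Each was placed in GRCm39 by an exact match, and the 250 bases before the start were searched on both strands for the SMAD palindrome GTCTAGAC, the SMAD box CAGACA, the GC-rich SMAD motif GGCGCC, the TEAD motif GGAATG, the AP-1 motif TGANTCA and the CArG box. CAGACA can overlap the palindrome in part, and the other motifs were counted separately. The first *Tgif1* window holds CAGACA, shown in capitals, from -201 to -196 from the start, and the second holds it on the other strand from -60 to -55. In the second window annotated exon begins after -104, so that match lies past the start of the exon. The other *Tgif1* windows hold none of the motifs. Of 32851 promoters searched over 250 bases, 17.1% hold this motif. That share is for a single promoter, whereas *Tgif1* had 5 windows and so more places for a match. The sequence shown, chr17:71160542-71160777 on the minus strand, is the first window without its last bases, which are annotated as exon.
Tgif1: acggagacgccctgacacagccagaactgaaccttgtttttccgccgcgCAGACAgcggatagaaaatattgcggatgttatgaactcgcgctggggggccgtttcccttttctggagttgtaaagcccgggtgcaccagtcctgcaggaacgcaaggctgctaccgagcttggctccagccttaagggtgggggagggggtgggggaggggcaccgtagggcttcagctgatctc

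Among the inhibitors of the receptor and of SMAD activation, *Pmepa1* (chr2:173066251-173118444, minus strand) encodes a membrane protein that traps receptor-activated SMADs and is induced by TGF-β in many cells. It was at 36.4, 34.5 and 38.9 CPM in Control, 45.6, 48.9 and 44.4 CPM with BGP, and 31.6, 33.0 and 33.3 CPM with NaHPO4. Its groups separated in opposite directions, with every BGP library above and every NaHPO4 library below those of Control. The log2FC was 0.34 with BGP against Control (SE 0.0563, adjusted p = 0.000153) and 0.51 with BGP against NaHPO4 (SE 0.0560, adjusted p = 5.19e-08), both from edgeR's quasi-likelihood test with Benjamini-Hochberg adjustment. With NaHPO4 against Control it was -0.17 (SE 0.0573, adjusted p = 0.0714), which passed with Control replicate 2 left out (adjusted p = 0.0345). The difference between the phosphates was below 0.5 with BGP replicate 2 (log2FC 0.47) or NaHPO4 replicate 1 (0.48) left out, and the gene was then no DEG.

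*Smad7* (chr18:75500374-75529006, plus strand), the inhibitory SMAD that turns off the TGF-β receptor, lay between these patterns. Its level was 17.5, 17.7 and 18.5 CPM in Control, 21.5, 21.8 and 19.8 CPM with BGP, and 19.1, 17.2 and 19.2 CPM with NaHPO4. The BGP libraries were above all others without overlap, but neither comparison passed in edgeR's quasi-likelihood test with Benjamini-Hochberg adjustment. The log2FC was 0.23 with BGP against Control (95% interval 0.08 to 0.39, adjusted p = 0.103) and 0.19 with BGP against NaHPO4 (95% interval 0.04 to 0.34, adjusted p = 0.161). *Smad3* (chr9:63554049-63665476, minus strand), carries the signal from the receptor to DNA and is a component of the pathway rather than one of its targets. It was at 94.9, 96.4 and 95.5 CPM in Control, 101, 103 and 102 CPM with BGP, and 92.6, 94.99 and 89.4 CPM with NaHPO4. The BGP libraries were again highest, but the step was small. It passed between the phosphates, with a log2FC of 0.14 (SE 0.0382, adjusted p = 0.0188 by edgeR's quasi-likelihood test with Benjamini-Hochberg adjustment), and not against Control, with 0.09 (SE 0.0386, adjusted p = 0.264). That call was lost when BGP replicate 2 (adjusted p = 0.0766), BGP replicate 3 (0.0617) or NaHPO4 replicate 3 (0.116) was left out, and when libraries were scaled by total counts (0.0700).

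Among the effector targets, *Ccn1* and *Ccn2* encode CYR61 and CTGF, secreted matricellular proteins of the CCN family that respond to TGF-β and also to YAP with TEAD. *Ccn2* (chr10:24471333-24474900, plus strand) was at 41.5, 36.6 and 39.7 CPM in Control, 76.4, 82.2 and 69.8 CPM with BGP, and 63.3, 59.7 and 60.6 CPM with NaHPO4. The 3 groups did not overlap, with BGP highest and Control lowest. *Ccn2* rose 1.94-fold with BGP (log2FC 0.96, SE 0.0545, adjusted p = 8.03e-16) and 1.56-fold with NaHPO4 (log2FC 0.64, SE 0.0547, adjusted p = 7.4e-11), by edgeR's quasi-likelihood test with Benjamini-Hochberg adjustment. Between the phosphates the log2FC was 0.32 (SE 0.0511, adjusted p = 6.68e-05). In the annotation used, 1164 bases of its exons overlap the antisense gene *Gm15270*, which had 34 to 92 counts per library, against 842 to 1830 for *Ccn2*.

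*Ccn1* (chr3:145352720-145355738, minus strand) behaved unlike *Ccn2*. Its level was 276, 251 and 253 CPM in Control, 246, 257 and 263 CPM with BGP, and 207, 202 and 205 CPM with NaHPO4. The BGP libraries overlapped with those of Control, and the NaHPO4 libraries lay below all others. *Ccn1* fell by 0.34 on the log2 scale with NaHPO4 (SE 0.0369, adjusted p = 1.7e-08 by edgeR's quasi-likelihood test with Benjamini-Hochberg adjustment), whereas with BGP against Control the log2FC was -0.02 (95% interval -0.10 to 0.05, adjusted p = 0.845). With BGP it was 1.25-fold higher than with NaHPO4 (log2FC 0.32, SE 0.0370, adjusted p = 1.35e-07). Its exons share 468 bases with the antisense gene *Gm17501*, which had 265 to 348 counts per library, against 5240 to 6426 for *Ccn1*. The libraries were made with a stranded kit, but the strand setting of the counting is not given in the sources used here.

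The sequence before *Ccn1* (chr3:145355741-145355990, minus strand, GRCm39, from RefSeq) is shown because *Ccn1* was the only gene of the 9 to fall past the test. Capitals mark the TEAD motif GGAATG, read on the other strand, from -103 to -98 from the start, and GGCGCC from -42 to -37. Of all promoters of this length, 12.6% hold the TEAD motif and 9.59% hold GGCGCC, which also stood before *Tgfbi*. The *Ski* window holds GGCGCC too, but the far end of that window already lies in annotated exon of *Ski*. GTCTAGAC, TGANTCA and the CArG box, held by 0.167%, 6.75% and 1.47% of all promoters, were in none of the windows of the 5 genes.
Ccn1: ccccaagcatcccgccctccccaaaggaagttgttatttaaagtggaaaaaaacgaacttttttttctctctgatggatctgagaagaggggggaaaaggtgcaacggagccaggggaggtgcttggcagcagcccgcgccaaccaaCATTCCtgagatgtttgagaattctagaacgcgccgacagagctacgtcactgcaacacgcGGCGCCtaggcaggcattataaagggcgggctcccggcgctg

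*Tgfbi* (chr13:56757336-56787375, plus strand), which encodes a matrix protein named for its induction by TGF-β, was the lowest and least even of the 9. Its level was 8.37, 8.22 and 7.79 CPM in Control, 5.01, 8.44 and 5.85 CPM with BGP, and 8.66, 5.65 and 5.97 CPM with NaHPO4. In each phosphate group 1 library was above the 3 Control libraries and the other two were below them. The log2FC was -0.34 with BGP against Control (95% interval -0.65 to -0.02, adjusted p = 0.320) and -0.26 with NaHPO4 (95% interval -0.57 to 0.04, adjusted p = 0.335), by edgeR's quasi-likelihood test with Benjamini-Hochberg adjustment. Between the phosphates the log2FC was -0.07, and it ran from -0.31 to 0.15 as single libraries were left out.

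**Figure D3:**
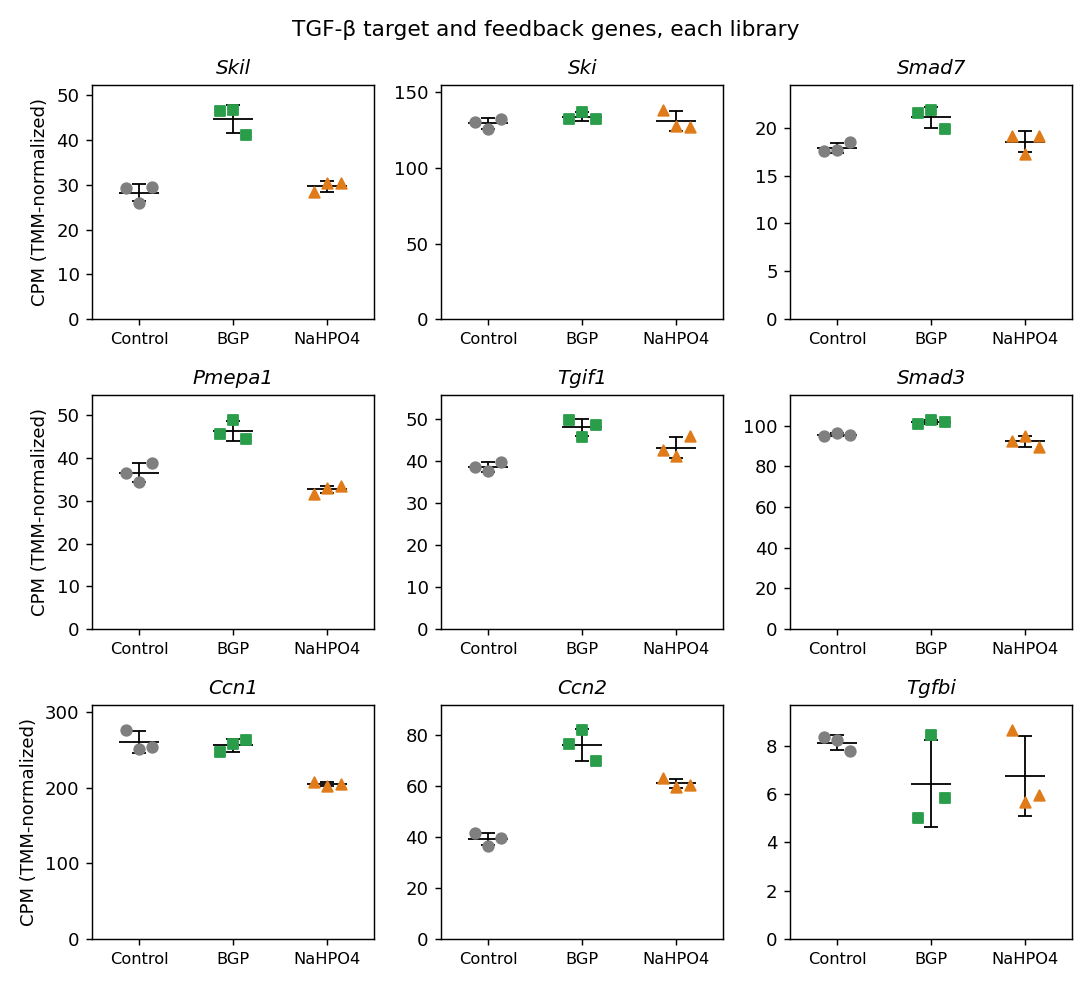
TMM-normalized CPM of the 9 genes in each library, on axes that start at 0; points are libraries (grey circles Control, green squares BGP, orange triangles NaHPO4), and bars are the mean ± SD of 3 libraries. *Skil*, *Smad7* and *Pmepa1* have their highest points in the BGP libraries, *Ccn2* is stepped from Control to NaHPO4 to BGP, and *Ccn1* has its lowest points in the NaHPO4 libraries.

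Across the 9 libraries, the genes varied together to different degrees, in part because the libraries of a group share their treatment. The Pearson correlation of log2 CPM was highest for *Skil* and *Pmepa1* (r = 0.907, n = 9 libraries), followed by *Smad3* and *Pmepa1* (r = 0.895) and *Ccn2* and *Tgif1* (r = 0.889). For *Ccn1* and *Ccn2* it was -0.228, and it was lowest for *Tgfbi* and *Tgif1* at -0.639. These values are descriptions over 3 groups of 3 libraries that share library depth and scaling.

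Of the other tested genes, those whose log2 CPM followed *Skil* most closely over the 9 libraries were *Sdc1* (r = 0.984), *Lgalsl* (r = 0.977), *Dot1l* (r = 0.973), *Fgf23* (r = 0.968) and *Lsp1* (r = 0.950). *Sdc1* encodes the proteoglycan syndecan-1, *Dot1l* a histone H3 methyltransferase and *Fgf23* the phosphate-regulating hormone that the study followed. The study had picked *Skil* on these libraries for a pattern shared with *Fgf23*, so a high correlation between these genes was built in. *Fgf23* was at 1.08, 0.914 and 1.61 CPM in Control, 10.2, 7.41 and 7.52 CPM with BGP, and 1.86, 1.37 and 1.41 CPM with NaHPO4. Its step with BGP was far larger than that of *Skil*, with a log2FC of 2.78 against Control, while those of *Sdc1*, *Lgalsl*, *Dot1l* and *Lsp1* ran from 0.12 to 0.31. Within groups, after the group means were taken out, the correlation with *Skil* was 0.787 for *Sdc1*, 0.869 for *Lgalsl*, 0.800 for *Dot1l*, 0.359 for *Fgf23* and 0.558 for *Lsp1*. These genes were ranked highest of all tested genes on the same libraries, so these values too are descriptions raised by that choice.

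**Figure D4:**
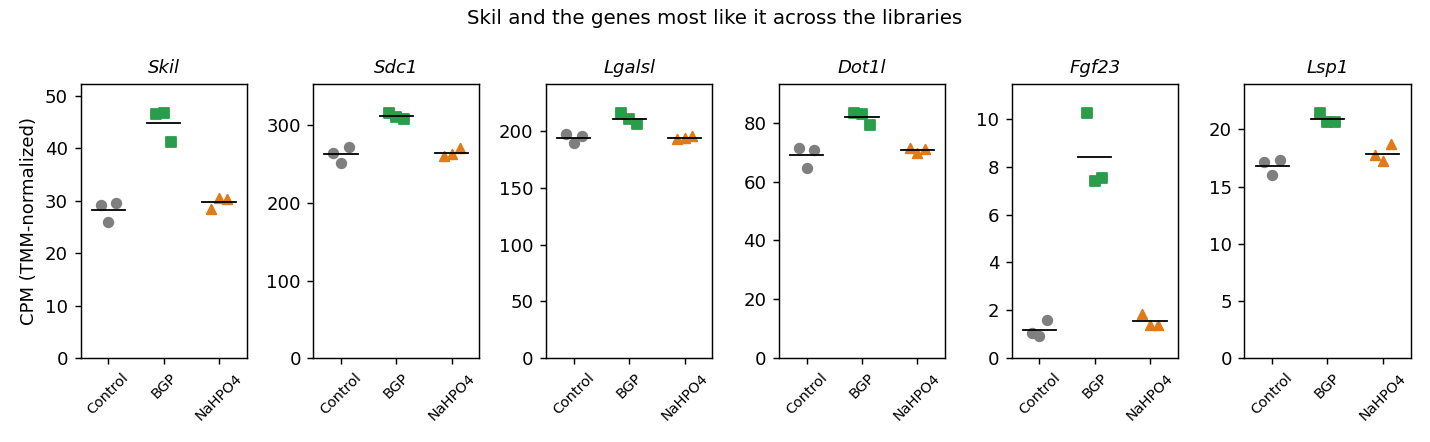
TMM-normalized CPM of *Skil* and of the 5 genes whose log2 CPM correlated best with it over the 9 libraries, each on its own axis from 0; points are libraries and lines are group means. In each panel the 3 BGP libraries lie highest and the Control and NaHPO4 libraries overlap, with *Fgf23* showing the widest gap (8.39 against 1.20 CPM). The shared pattern follows from how the genes were chosen.

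The rest of the pathway was read from 75 other genes, of which 69 were tested. With BGP against Control 6 rose and 1 fell, with NaHPO4 against Control 1 rose and 10 fell, and 14 were higher and 0 lower with BGP than with NaHPO4. With libraries scaled by total counts, the numbers higher and lower were 5 and 2, 3 and 10, and 11 and 1. The shares of all genes given above are 2.53%, 7.38% and 5.38%. Of all genes that passed, 73.7%, 46.5% and 62.0% were higher. The medians of the 69 were 0.03, -0.01 and 0.06 on the log2 scale. All 4 lists and the 9 genes are plotted together for each comparison.

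Among the ligands, receptors and latency proteins, 2 of 14 tested passed with BGP, each higher, and 3 passed with NaHPO4, all lower. Between the phosphates 5 passed, all higher with BGP. Over all genes, the shares that passed were 2.53%, 7.38% and 5.38%. *Tgfb1*, the most studied ligand, was at 212, 196 and 222 CPM in Control, 214, 215 and 204 CPM with BGP, and 191, 186 and 188 CPM with NaHPO4. The NaHPO4 libraries lay below all others. It fell by 0.16 on the log2 scale with NaHPO4 against Control (SE 0.0381, adjusted p = 0.00611) and was higher by 0.16 with BGP than with NaHPO4 (SE 0.0382, adjusted p = 0.00546), by edgeR's quasi-likelihood test with Benjamini-Hochberg adjustment. The fall was no longer past the test without Control replicate 3 (adjusted p = 0.0927). *Ltbp2*, a matrix relative of the latent TGF-β binding proteins that the study also picked on these libraries, had a log2FC of 0.59 with BGP against Control. *Tgfb3* rose by 0.18 with BGP, *Ltbp4* fell by 0.23 and the co-receptor *Tgfbr3* fell by 0.15 with NaHPO4. The *Tgfb3* call (adjusted p = 0.0481) was lost with DESeq2, limma, total counts and no filter on low counts (adjusted p = 0.0506 to 0.0789) and without any 1 of the BGP libraries, Control replicates 1 and 2 or NaHPO4 replicate 2 (adjusted p = 0.0550 to 0.221), and that of *Tgfbr3* without NaHPO4 replicate 3 (adjusted p = 0.0670). The receptor kinases *Tgfbr1* and *Tgfbr2* did not pass in any comparison, with log2FC of 0.01 and 0.04 with BGP and 0.003 and -0.01 with NaHPO4 against Control.

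None of the 15 other SMADs, partners and corepressors and none of the 12 ubiquitin ligases and other enzymes that act on SnoN, SMADs or the receptor passed an FDR of 0.05 in any of the 3 comparisons by edgeR's quasi-likelihood test, DESeq2 or limma. At an unadjusted p below 0.05, 3 of the 15 partners were past with BGP, against 13.4% of all genes, 3 with NaHPO4 (*Smad6*, *Smad9*, *Trim33*), against 19.9%, and 1 between the phosphates, against 16.9%, where edgeR's likelihood ratio test called 1, and 1 of the 12 enzymes was past in each comparison (*Ppm1a*, *Wwp1* and *Ppm1a*). *Smad2* had a log2FC of 0.03 with each phosphate against Control and *Smad4*, the shared partner, had 0.10 with BGP and 0.04 with NaHPO4. For the ligases *Rnf111* (Arkadia), *Smurf1* and *Smurf2*, the log2FC with BGP against Control were -0.07, 0.07 and 0.05.

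Of 28 other TGF-β target genes, 5 passed with BGP (4 higher, 1 lower) and 8 with NaHPO4 (1 higher, 7 lower). Between the phosphates 9 passed, all higher with BGP. Over all genes 2.53%, 7.38% and 5.38% passed, and of these 73.7%, 46.5% and 62.0% were higher. *Bhlhe40* and *Junb*, both transcription factors, rose with BGP by 0.48 and 0.42, and *Bhlhe40* also rose with NaHPO4 by 0.27, whereas *Junb* had a log2FC of -0.01 there. *Acta2*, smooth muscle actin, was at 451, 455 and 415 CPM in Control, 477, 508 and 493 CPM with BGP, and 303, 361 and 323 CPM with NaHPO4. The 3 groups did not overlap, with NaHPO4 lowest. *Acta2* fell by 0.42 with NaHPO4 and rose by 0.16 with BGP, and the actin-binding *Tagln* fell by 0.24 and the matrix gene *Postn* by 0.22 with NaHPO4. *Postn* was also the gene that fell with BGP, by 0.14. The rise of *Acta2* with BGP was lost with DESeq2 (adjusted p = 0.349) and without Control replicate 3, BGP replicate 2 or BGP replicate 3 (adjusted p = 0.0772 to 0.211), and the fall of *Tagln* without Control replicate 1 (0.114) or NaHPO4 replicate 1 (0.156).

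**Figure D5:**
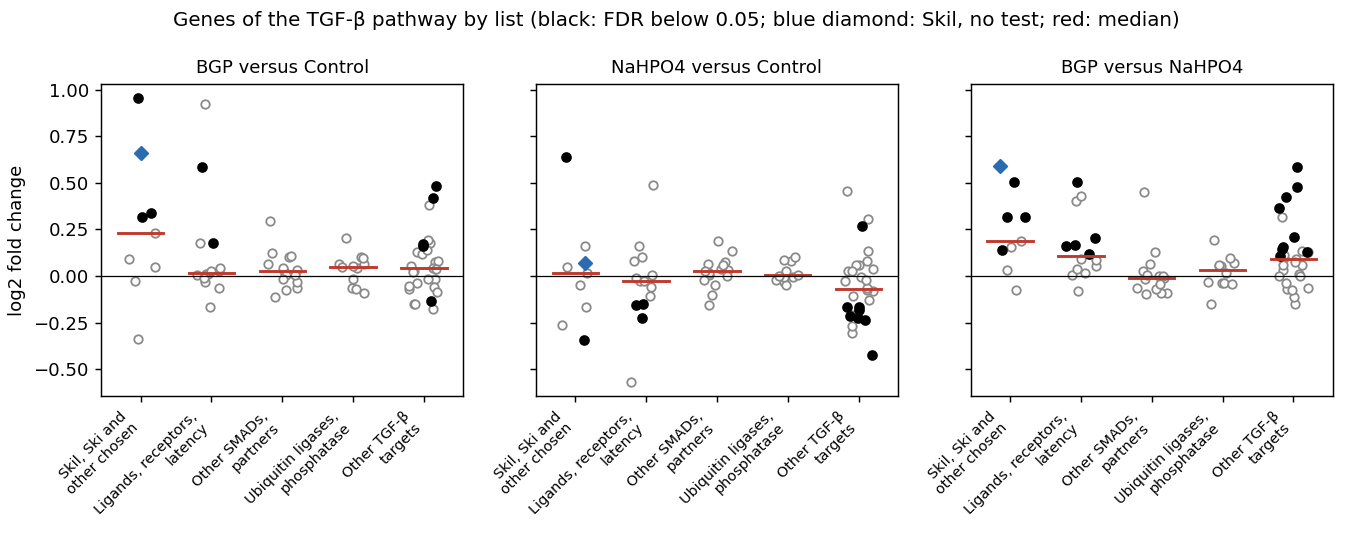
Log2 fold change of the 9 genes and of 4 lists of other pathway genes in the 3 comparisons; each point is a gene, black points passed an FDR of 0.05, open points did not, the blue diamond is *Skil* without a test, and red lines are list medians, with *Skil* included in the first. The SMAD partners and the ubiquitin ligases hold no black point in any panel, and the black points of the other targets lie mostly below 0 with NaHPO4 and all above 0 between the phosphates.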

How the data were processed

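RNA was sequenced as 9 stranded polyA libraries, and reads were mapped by the authors in AIR software (GRCm39, Ensembl 104). The aligner, counter and strand setting are not given in the sources used here. The authors deposited whole-number read counts per gene, not normalized, which were used for all tests, and a TMM-scaled table, a signal equal to the counts times 1 factor per library (1.01 to 1.32), used for an alternative only.

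Groups came from the labels. Genes were filtered by filterByExpr with a count minimum of 10, leaving 13679 of 55416. Libraries were scaled by TMM (factors 0.989 to 1.017), and glmQLFit and glmQLFTest of edgeR 4.0.16 were run on all 9 libraries with 1 coefficient per group. A standard error was derived from the F statistic. A count of 10 was worth 0.351 to 0.467 CPM. Replicates differed beyond counting noise (chi-square per degree of freedom 2.56 to 4.64). TPM used exon lengths of the GENCODE annotation of GRCm39. Alternatives used DESeq2 1.42.0 and limma 3.58.1. The software was R 4.3.3, Python 3.11.15, matplotlib 3.10.9 and pandas 2.3.3. The fit was tested on simulated counts.

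The 9 genes and all lists were chosen with earlier results of these data known. Besides the 9, *Tgfb1*, *Tgfbr1*, *Tgfbr2*, *Smad2*, *Smad4* and *Fgf23* were named whatever their values, and from each other list up to 4 passing genes per comparison with the largest absolute log2FC could be named, with the 5 genes best correlated with *Skil*. Of the ligases, *Rnf111*, *Smurf1* and *Smurf2* were named for their roles, after their values were seen. For *Smad7*, no sequence is shown. Some genes of the lists are not reported here by name.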

Additional observations from a re-analysis of the deposited data

How the results depend on the processing

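The 9 genes and the other pathway genes were recomputed under 18 alternatives: 2 groups at a time, edgeR's likelihood ratio test, DESeq2, limma on the deposited TMM table, DESeq2 size factors, total counts, no filter, at least 10 counts in every library, a replicate block, and leaving out 1 library at a time. An FDR of 0.01 was also tried for the counts. The calls of *Ccn1*, *Ccn2*, *Pmepa1* and *Tgif1* past the test were kept in all 18, and that of *Smad3* between the phosphates was lost in 5, among them limma (adjusted p = 0.0506). *Tgif1* with NaHPO4 against Control passed with the likelihood ratio test (adjusted p = 0.0476), limma (0.0431) and total counts (0.0253). With limma or total counts *Pmepa1* was below a log2FC of 0.5 between the phosphates, which left 1 gene past both limits (*Skil*, chosen on that difference) instead of 2, and 1 to 2 with single libraries left out. The 7 other pathway genes that passed with BGP became 3 at an FDR of 0.01 and 3 to 8 with single libraries left out (3 without BGP replicate 2, 4 without Control replicate 2 or BGP replicate 1), and the 14 between the phosphates became 9 to 14 (9 without BGP replicate 1). The cause was not tested.

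Signs turned for values near 0. With total counts *Tgfbr2* was at 0.0116 with NaHPO4 against Control and *Tgfbr1* at -0.0201 between the phosphates, where limma gave -0.00877, and *Smad2* was at 0.000195 between the phosphates with at least 10 counts everywhere. With single libraries left out, the log2FC with BGP against Control ran from -0.0497 to 0.0213 for *Ccn1*, from -0.0409 to 0.0494 for *Tgfb1*, from -0.0342 to 0.0384 for *Tgfbr1* and from -0.0053 to 0.0621 for *Smad2*. With NaHPO4 against Control it ran from -0.0232 to 0.0404 for *Ski*, from -0.0413 to 0.0291 for *Tgfbr1*, from -0.0559 to 0.0236 for *Tgfbr2*, from -0.00512 to 0.0556 for *Smad2* and from -0.0189 to 0.0740 for *Smad4*. Between the phosphates it ran from -0.314 to 0.146 for *Tgfbi*, from -0.00981 to 0.0359 for *Tgfbr1* and from -0.0323 to 0.0304 for *Smad2*.

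The split of all genes that passed moved with the scaling. The share that was higher was 46.5% with NaHPO4 against Control and 62.0% with BGP against NaHPO4, and with total counts it was 65.3% and 39.5%, and with limma on the deposited TMM values, which changed the test as well as the scaling, 55.5% and 49.4%. The median of all genes moved to at most -0.029 on the log2 scale.

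Replicate numbers are shared between the groups, but libraries with the same number did not deviate together (mean correlation 0.0127, from -0.0092 to 0.0426), so that they were not taken as pairs. With the replicate number as a block, 3, 2 and 4 of the 8 genes beside *Skil* passed in the 3 comparisons and 7, 12 and 13 other pathway genes, and the calls over all genes were 351, 996 and 749 instead of 346, 1009 and 736. With 3 libraries per group and a *Tgfbi* count of 111 to 238, differences of its size could not be told from library spread.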

Other observations

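The other CCN proteins, relatives of *Ccn1* and *Ccn2*, were measured beside them, and 3 of the 4 were tested. With NaHPO4 against Control *Ccn3* fell by 0.56 and *Ccn5* rose by 0.35 on the log2 scale, and neither passed with BGP against Control. Between the phosphates *Ccn3* (log2FC 0.66) and *Ccn4* (0.13) were higher with BGP and *Ccn5* was lower (-0.50). Over all genes, 7.38% passed with NaHPO4 against Control and 5.38% between the phosphates. *Ccn3* was low, at 7.71 CPM in Control. Its call with NaHPO4 was lost without Control replicate 1 or 2 or NaHPO4 replicate 1 or 2 (adjusted p = 0.0577 to 0.130), that of *Ccn5* without Control replicate 1 (0.0874) or NaHPO4 replicate 3 (0.0751), and between the phosphates that of *Ccn3* without BGP replicate 3 (0.105) and that of *Ccn4* without BGP replicate 1 or 2 or NaHPO4 replicate 2 or 3 (0.0786 to 0.234), as also with limma (0.0784) and total counts (0.111). Of the 5 tested CCN genes, *Ccn2* and *Ccn5* rose with NaHPO4 and *Ccn1* and *Ccn3* fell.

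Published targets of YAP and TEAD other than *Ccn1* and *Ccn2* were also read, since both genes belong to that group too. Of 18 tested, 2 passed with BGP against Control (*Axl* at 0.36 and *Dock5* at 0.31), 3 with NaHPO4 (*Axl* at 0.40, *Dock5* at 0.23 and *Myof* at 0.19) and 2 between the phosphates (*F3* higher at 0.21 and *Myof* lower at -0.12 with BGP), against 2.53%, 7.38% and 5.38% of all genes. Between the phosphates, *F3* no longer passed without BGP replicate 1 (adjusted p = 0.0539), nor did *Myof* without BGP replicate 3 (0.0599) or NaHPO4 replicate 1 (0.0533). *Axl* was at 95.9, 92.3 and 106 CPM in Control, 129, 125 and 123 CPM with BGP, and 132, 119.7 and 137 CPM with NaHPO4, so that both phosphates lay above Control.

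Targets of the sister pathway of bone morphogenetic proteins (*Id1*, *Id2*, *Id3*, *Id4*, *Smad6*, *Nog*, *Grem1* and *Atoh8*) had 0 of 8 genes past an FDR of 0.05 by edgeR's quasi-likelihood test in each of the 3 comparisons, as with its likelihood ratio test, DESeq2 and limma. At an unadjusted p below 0.05, 2 were past with BGP (*Id3* and *Smad6*), 1 with NaHPO4 (*Smad6*) and 1 between the phosphates (*Id2*), against 13.4%, 19.9% and 16.9% of all genes. *Id3*, the highest of them, had a log2FC of -0.08 with BGP and -0.05 with NaHPO4 against Control.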
